A study of Gallus gallus with 8 samples.

Results

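E18 retina was compared with E16 retina in the chicken embryo (Gallus gallus), across every gene that held reads in the 4 libraries of those 2 ages. The members were all genes with at least 1 read in any of these libraries, 14452 of the 14839 genes with reads in the whole series, and 4 of its 8 libraries. E18 and E16 stand for 18 and 16 days of incubation, so the comparison covers a late stretch of retinal maturation before hatching. The days from E18 to hatching were not sampled. The tissue was whole neural retina from commercial Cobb/Hubbard hybrid embryos with no treatment or genetic change. E18 retina and E16 retina had 2 libraries each, from different embryos. Libraries were made from poly(A) RNA and sequenced in pairs of reads. The remaining libraries of the series, E18 cornea and E8 retina, entered the fit only to share the estimate of the spread. The sex of the embryos and the hour of collection are not given in the sources used here.

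By this age the retina holds its photoreceptors, bipolar, horizontal, amacrine and ganglion cells and its Müller glia, and cell birth has nearly ended. What remains is the building of outer segments, the membrane stacks in which rods and cones catch light, and of synapses, channels and glial enzymes. Corticosteroid and thyroid hormone levels of the chick embryo climb shortly before hatching, and glutamine synthetase of Müller glia is the textbook example of a retinal gene that answers to corticosteroids.

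Reads on genes were 20288742 and 33517176 in the E18 retina libraries, against 23564482 and 29827992 in the E16 retina libraries. The paper lists a higher share of uniquely mapped reads for both E18 retina libraries than for both E16 retina libraries. Age cannot be told apart from this difference in mapping, and its part in the results below was not tested. Values below are normalized read counts, that is reads divided by a size factor for each library, and they can be compared between libraries for 1 gene but not between genes of different length. The replicates lay close together, with a median standard deviation per gene of 0.0861 at E18 and 0.0949 at E16 on the log2 scale (n = 2 each). Retinal markers were present in each of the 4 libraries. VSX1 of bipolar cells had 11780 and 13442 at E18, against 15783 and 14213 at E16, TFAP2A of amacrine cells had 1050.0 and 1186 at E18, against 1225 and 1126 at E16, and RLBP1 of Müller glia had 12294 and 13250.1 at E18, against 9649 and 10896 at E16. KRT12, the keratin of corneal epithelium, had 3.76 and 2.27 at E18, against 4.20 and 8.99 at E16, with a mean of 267609 in E18 cornea. LUM, a proteoglycan of the corneal stroma, had 10.02 and 5.30 at E18, against 12.6 and 16.3 at E16, with a mean of 168719 in E18 cornea. A block of neighbouring rows of the table lists 1153 genes at 0 in all 8 libraries, among them the cone transducin gene GNAT2, so a listing at 0 there is no measure of expression.

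Of 13194 genes tested, 2450 (18.6%) were called, meaning an adjusted p under 0.05 in limma's test. Of these, 1411 (10.7% of genes tested) were higher at E18 and 1039 (7.87%) were lower. The median log2 fold change was 0.02 over all genes tested and the median size of the change among called genes was 0.80. Changes of at least 2-fold were found for 475 genes that rose and 338 that fell. The E18 and E16 libraries did not overlap for 74% of all genes tested, and for each of the 2450 called. The count tests edgeR and DESeq2 on the recovered reads called 2313 of the 2450 genes, in the same direction. The spread of each gene was shared by all 8 libraries, so a gene that varied between replicates of E8 retina or E18 cornea could miss the test even where the E18 and E16 retina libraries lay far apart. The share of each list of genes given below is to be read against the shares over all genes tested. The number called depended strongly on having both libraries of each age. It was 109 leaving out E18 replicate 1, 884 leaving out E18 replicate 2, 164 leaving out E16 replicate 1 and 426 leaving out E16 replicate 2, where the lone library left was assumed to vary like the other groups. In those 4 fits 92 genes were called each time, and none of the 2450 changed sign in any of them. In bulk tissue a lower level may stand for fewer cells of a type or for less RNA in each cell, and these cannot be told apart. Whether the calls follow the length of the genes, as a difference between libraries could make them do, was not tested.

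**Figure D1:**
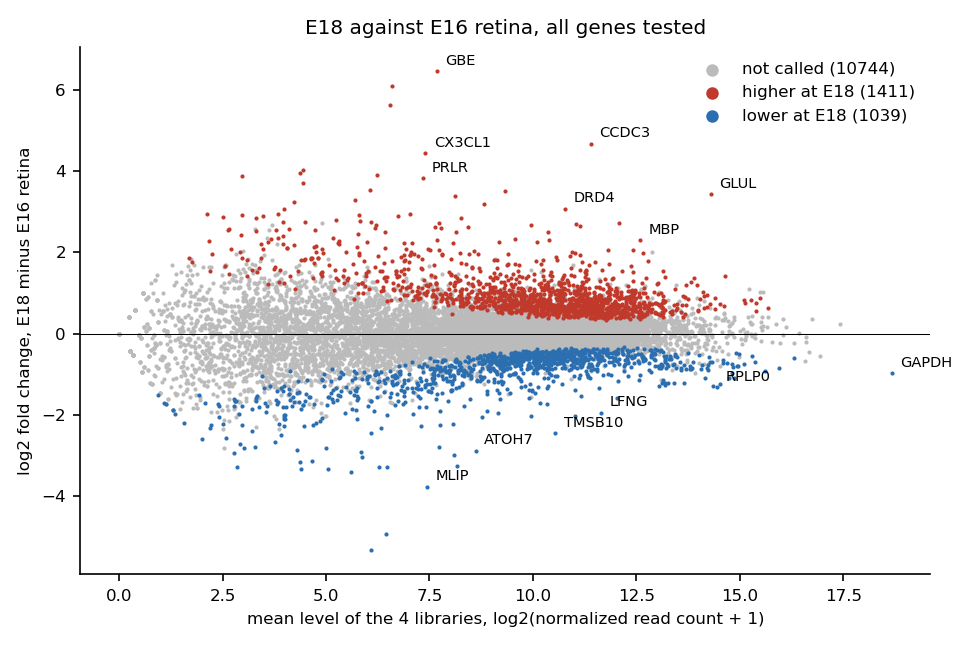
Each point is 1 of the 13194 genes tested, with the mean level of the 4 libraries on the x axis, log2(normalized read count + 1), and the log2 fold change of E18 minus E16 retina on the y axis. The 1411 genes called higher at E18 (red) and the 1039 called lower (blue) reach 6.47 (GBE) and -5.33 on the log2 scale, and the abundant GAPDH lies below 0.

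The steepest rises belonged to genes with quite different functions. GLUL, glutamine synthetase, which turns glutamate into glutamine in Müller glia, had 37222 and 36451 normalized counts in E18 retina, against 3656 and 3197 in E16 retina. Both E18 libraries stood about an order of magnitude above both E16 libraries, and the change passed the test (log2 fold change 3.43, SE 0.24, adjusted p = 0.00115). DRD4, a dopamine receptor of photoreceptors and other retinal cells, had 3066 and 3203 at E18, against 349 and 391 at E16 (log2 fold change 3.08, SE 0.26, adjusted p = 0.00136). GUCA1B, which activates the guanylate cyclase of outer segments, had 1215 and 1148 at E18, against 71.5 and 146 at E16 (log2 fold change 3.52, SE 0.42, adjusted p = 0.00323). These 3 calls held with any 1 library left out.

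CX3CL1, the chemokine fractalkine, had 343 and 301 normalized counts in E18 retina, against 11.6 and 16.3 in E16 retina (log2 fold change 4.45, SE 0.38, adjusted p = 0.00136). PRLR, the prolactin receptor, had 296 and 309.7 at E18, against 21.0 and 19.6 at E16 (log2 fold change 3.83, SE 0.28, adjusted p = 0.00115), and its replicates were nearly equal at both ages. CCDC3 had 5087 and 5181 at E18, against 354 and 112 at E16 (log2 fold change 4.68, SE 0.45, adjusted p = 0.00185), and its E16 replicates differed from each other more than its E18 replicates did. GBE had 343 and 466 at E18, against 1.05 and 8.99 at E16, of which the first E16 value was a single read. With all 8 libraries it had the highest log2 fold change of all genes tested, 6.47 (SE 0.89, adjusted p = 0.00475), and leaving out 1 library moved it between 5.33 and 7.61 on the log2 scale, with the call lost leaving out E18 replicate 1 (adjusted p = 0.0540). GBE is a row of its own, apart from the glycogen branching enzyme GBE1. CCDC3 and CX3CL1 were also present in E18 cornea, at means of 12605 and 424.

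CALB1, the calcium buffer calbindin, had 7662 and 7352 at E18, against 1041 and 1258 at E16 (log2 fold change 2.71, SE 0.70, adjusted p = 0.0314). MYO3A, a myosin with a kinase domain that is found in photoreceptors, had 4092 and 3668 at E18, against 703 and 533 at E16 (log2 fold change 2.66, SE 0.30, adjusted p = 0.00277). SLC24A4, an exchanger of sodium for calcium and potassium, had 979.8 and 656 at E18, against 70.4 and 107 at E16 (log2 fold change 3.19, SE 0.34, adjusted p = 0.00241). For each of these genes every E18 library was above every E16 library. The calls of MYO3A and SLC24A4 held with any 1 library left out, while that of CALB1 was lost in every such fit, with adjusted p between 0.109 and 0.180.

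The steepest falls included genes of neuron birth and genes of the actin cytoskeleton. MLIP, which binds lamin in muscle, had 25.1 and 19.7 normalized counts in E18 retina, against 400.5 and 249 in E16 retina (log2 fold change -3.77, SE 0.34, adjusted p = 0.00152). ATOH7, the transcription factor that permits the birth of ganglion cells, had 75.2 and 109.8 at E18, against 539 and 849 at E16 (log2 fold change -2.88, SE 0.59, adjusted p = 0.0146), with 10559.8 and 2483 in the E8 retina libraries, which differed widely. TMSB10, a thymosin that sequesters actin monomers, had 405 and 512 at E18, against 2686 and 2342 at E16 (log2 fold change -2.46, SE 0.53, adjusted p = 0.017). In all 3 genes the libraries of the 2 ages were well apart. NR2E3, the nuclear receptor that in mammals sets rod identity, had 712 and 932 at E18, against 3738 and 2924 at E16 (log2 fold change -2.02, SE 0.43, adjusted p = 0.0166). LFNG, a glycosyltransferase that modifies Notch, had 1257 and 1373 at E18, against 5456 and 4691 at E16 (log2 fold change -1.94, SE 0.15, adjusted p = 0.00115). The calls of MLIP and LFNG held with any 1 library left out, and those of ATOH7, TMSB10 and NR2E3 were lost in every such fit.

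Several of the genes that fell most had been higher at E16 than at E8, as their levels show. NR2E3 averaged 759.6 at E8, 3331 at E16 and 822 at E18. FIBCD1, a receptor that binds acetylated sugars, averaged 546, 11962 and 4854 at the same ages. COL13A1, a transmembrane collagen, averaged 79.9, 901 and 229. LFNG instead stepped down at each age, with means of 20824, 5074 and 1315.

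**Figure D2:**
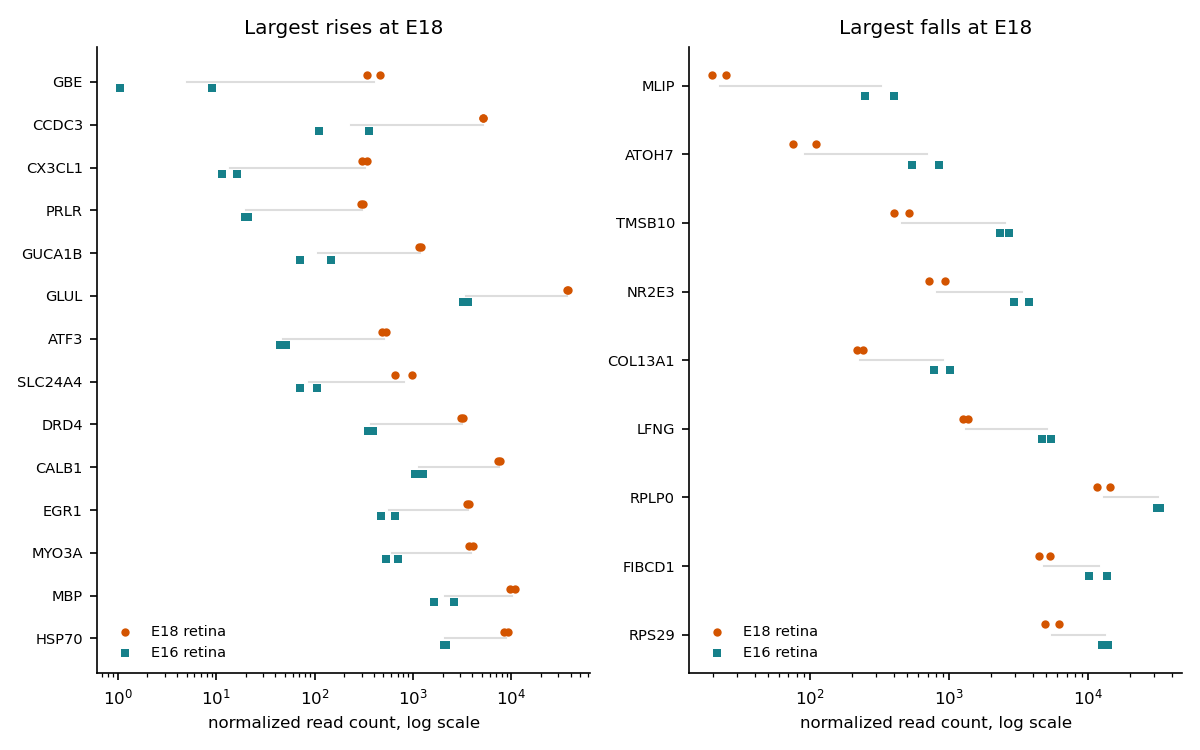
Normalized read counts on a log axis of genes described in the text that were among the largest rises (left) and falls (right) of called genes, with each E18 retina library as a circle and each E16 retina library as a square; the grey line joins the group means. In every row the circles and squares do not overlap, as in GLUL, where the E18 libraries lie near 36836 and the E16 libraries near 3426.

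Phototransduction genes were higher at E18 wherever they changed. Of 26 tested members of the list, 13 were higher at E18, none was lower by limma, with 0 at p under 0.05 before adjustment, 0 by edgeR and 0 by DESeq2, and the median log2 fold change was 1.02, against 0.02 over all genes tested. All 26 had a log2 fold change above 0. CNGA1, the rod cyclic nucleotide channel, had 208 and 162 normalized counts in E18 retina, against 32.6 and 17.2 in E16 retina (log2 fold change 2.90, SE 0.69, adjusted p = 0.024). PRA1, the row that RefSeq pairs with the green cone opsin gene OPN1MSW, had 7680.4 and 8369 at E18, against 2664 and 2412 at E16 (log2 fold change 1.66, SE 0.25, adjusted p = 0.00576). PDE6C, the catalytic phosphodiesterase of cones, had 13713 and 13291 at E18, against 4425 and 4852 at E16 (log2 fold change 1.54, SE 0.34, adjusted p = 0.0189). Rod and cone members thus both had E18 libraries above the E16 libraries. GRK7, the opsin kinase of cones, had a log2 fold change of 1.71. The cyclase GUCY2F had 1.44, its activator GUCA1C 1.43, and the exchanger SLC24A1 of rods 1.22, and all of these were called. Members that were not called by limma included the rod transducin GNAT1 (0.997, adjusted p = 0.162), cone arrestin ARR3 (0.80) and the cone channel subunit CNGB3 (0.28). GNAT1 had 1887 and 1889 at E18, against 946 and 945 at E16, and passed in edgeR (adjusted p = 0.0043) and DESeq2 (adjusted p = 4.0e-06). The count of members called higher was 1 leaving out E18 replicate 1, 4 leaving out E18 replicate 2, 1 leaving out E16 replicate 1 and 3 leaving out E16 replicate 2.

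Genes of outer segment structure and of the matrix around photoreceptors changed less evenly. Of 21 tested, 7 were higher, none was lower by limma, with 1 at p under 0.05 before adjustment, 1 by edgeR and 1 by DESeq2, and the median log2 fold change was 0.33. PRPH2, the tetraspanin that shapes the rim of outer segment discs, had 10555 and 10177 normalized counts in E18 retina, against 3001 and 2258 in E16 retina (log2 fold change 1.99, SE 0.28, adjusted p = 0.00515). CRB1, which holds the outer limiting membrane together, had a log2 fold change of 1.31, the axonemal gene RP1L1 one of 1.07 and the chaperone AIPL1, which stabilises phosphodiesterase, one of 0.86. Matrix and disc genes that were already abundant at E16 did not pass the test: RBP3, the retinoid binding protein between photoreceptors and pigment epithelium, had 21331 and 19387 at E18, against 21755 and 16932 at E16, and IMPG2, a proteoglycan of the same space, had 18019.5 and 16452 at E18, against 33591 and 26334 at E16 (log2 fold change -0.79, SE 0.26, adjusted p = 0.0651). The number called higher was 0 leaving out E18 replicate 1, 1 leaving out E18 replicate 2, 1 leaving out E16 replicate 1 and 0 leaving out E16 replicate 2.

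Of 16 photoreceptor transcription factors tested, 3 were higher (18.8%) and 4 were lower (25%), against 10.7% and 7.87% of all genes tested (median 0.053). MEF2D, which works with CRX on mature photoreceptor genes in mouse, had 3612 and 3412 normalized counts in E18 retina, against 1252 and 1439.6 in E16 retina (log2 fold change 1.39, SE 0.14, adjusted p = 0.0023), a call that held with any 1 library left out. ESRRB, an orphan nuclear receptor of rods in mouse, had 2661 and 2556 at E18, against 1039.6 and 1129 at E16 (log2 fold change 1.27, SE 0.34, adjusted p = 0.0341), and RORALPHA1, the row paired with RORA, had a log2 fold change of 1.06. The members that fell were NR2E3, RX1 (the row paired with RAX; -1.17), LHX4 (-1.10) and RXRG, the retinoid receptor of developing cones (-0.74). RAX and LHX4 are early regulators of the lineage. OTX2 had 10912 and 12388 at E18, against 16135 and 14795 at E16 and did not pass the test (adjusted p = 0.692). Counts of members higher and lower were both smaller with 1 library left out: 1 leaving out E18 replicate 1, 2 leaving out E18 replicate 2, 1 leaving out E16 replicate 1 and 1 leaving out E16 replicate 2 for those higher, and 0 leaving out E18 replicate 1, 2 leaving out E18 replicate 2, 0 leaving out E16 replicate 1 and 0 leaving out E16 replicate 2 for those lower.

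Of 22 genes of retinoid handling, 3 were higher and 3 lower (13.6% each, near the 10.7% and 7.87% of all genes tested), with a median of -0.22. STRA6, the membrane receptor for retinol carried by its plasma protein, had 1496 and 1666 at E18, against 539 and 841 at E16 (log2 fold change 1.23, SE 0.32, adjusted p = 0.034). CYP26A1, which breaks down retinoic acid, had 67.7 and 84.0 at E18, against 179.7 and 208 at E16 (log2 fold change -1.35, SE 0.20, adjusted p = 0.00544), and RDH10, which makes its precursor retinal, had 427 and 454 at E18, against 799.9 and 730.4 at E16 (log2 fold change -0.79, SE 0.16, adjusted p = 0.0129). CRABP-I, the row paired with CRABP1, which binds retinoic acid inside cells, had a log2 fold change of -0.78. RPE65, the isomerase of the pigment epithelium, had 86.5 and 108 at E18, against 8.41 and 16.3 at E16 (log2 fold change 2.93, SE 0.55, adjusted p = 0.0115). Members called higher numbered 1 leaving out E18 replicate 1, 1 leaving out E18 replicate 2, 1 leaving out E16 replicate 1 and 2 leaving out E16 replicate 2, and the count called lower was 0 leaving out E18 replicate 1, 1 leaving out E18 replicate 2, 0 leaving out E16 replicate 1 and 1 leaving out E16 replicate 2.

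**Figure D3:**
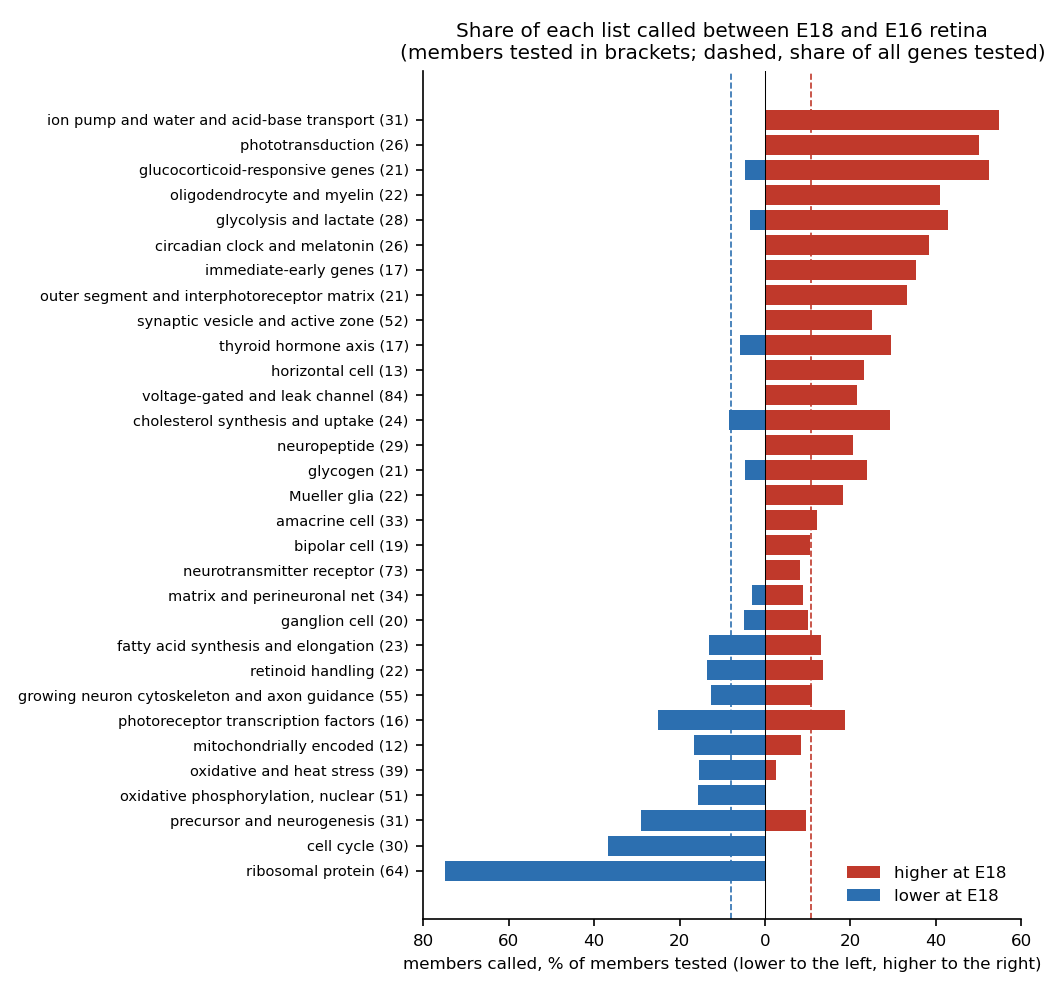
Bars give, for each list of genes, the share of its tested members called higher at E18 (red, to the right) and lower at E18 (blue, to the left), with the number tested in brackets; dashed lines mark 10.7% and 7.87%, the shares of all genes tested. Ion pumps, phototransduction and glucocorticoid-responsive genes have the longest red bars, and ribosomal proteins the longest blue one at 75.0%.

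In the Müller glia list, 4 of 22 members tested were higher and none was lower by limma, with 1 at p under 0.05 before adjustment, 0 by edgeR and 1 by DESeq2 (median 0.48). Besides GLUL these were DIO2, the deiodinase that makes active thyroid hormone (807 and 744 at E18, against 226 and 337 at E16; log2 fold change 1.49, SE 0.28, adjusted p = 0.0119), AQP1, a water channel (1.26), and SOX9, a glial transcription factor (0.95). AQP4, the water channel of Müller endfeet, had 1868 and 1597 at E18, against 618 and 580.1 at E16, and its E18 libraries were both higher but the change did not pass the test (log2 fold change 1.53, SE 0.77, adjusted p = 0.195). The same held for SLC1A3, the glial glutamate transporter, with 64488 and 65053 at E18, against 31542 and 32537 at E16 (log2 fold change 1.02, SE 0.49, adjusted p = 0.174). Markers already high at E16, such as CA2 (-0.090) and RLBP1 (0.32), were not called. Those called higher numbered 1 leaving out E18 replicate 1, 2 leaving out E18 replicate 2, 2 leaving out E16 replicate 1 and 2 leaving out E16 replicate 2.

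Genes that answer to glucocorticoids in other tissues were higher in 11 of 21 cases (52.4%) and lower in 1 (4.76%), with a median of 1.07. Over all genes tested the shares were 10.7% and 7.87%. KLF9, a zinc finger factor induced by glucocorticoid and thyroid hormone, had 4546 and 5108 normalized counts in E18 retina, against 1576 and 1681 in E16 retina (log2 fold change 1.57, SE 0.15, adjusted p = 0.00185). Corticosteroid receptors were higher at E18, and NR3C2 is itself 1 of those 11 list members. NR3C2, the mineralocorticoid receptor, had 1089 and 979 at E18, against 313 and 316 at E16 (log2 fold change 1.71, SE 0.19, adjusted p = 0.00251). NR3C1, the glucocorticoid receptor, had 387 and 367 at E18, against 155 and 173 at E16 (log2 fold change 1.20, SE 0.26, adjusted p = 0.018). PDK4, which restrains pyruvate dehydrogenase, had a log2 fold change of 1.08, FKBP51, a chaperone of the receptor, one of 0.54, and ZBTB16 one of 1.46. ANGPTL4, a lipase inhibitor, was the member that fell (3271 and 3677 at E18, against 5666 and 6326 at E16; log2 fold change -0.79, SE 0.13, adjusted p = 0.00705). TSC22D3 and SGK1, which are standard targets in mammalian cells, were not called (0.34 and 0.043). The count called higher was 4 leaving out E18 replicate 1, 6 leaving out E18 replicate 2, 5 leaving out E16 replicate 1 and 6 leaving out E16 replicate 2. GLUL, KLF9, NR3C2 and PER2 were called in each of those fits.

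Of 17 tested genes of the thyroid hormone axis, 5 were higher (29.4%) and 1 was lower (5.88%), with a median of 0.42. Over all genes tested the shares were 10.7% and 7.87%. Besides KLF9 and DIO2 the risers included the corepressor NCOR1 (0.62) and the partner receptor RXRA (0.77). RXRG, another partner receptor, fell. Of the hormone receptors, THRB, which patterns cone opsins in mouse, had 1439.6 and 1333 at E18, against 721 and 670.0 at E16 (log2 fold change 0.99, SE 0.33, adjusted p = 0.069) and THRA had 1435 and 1870.2 at E18, against 1613 and 1643 at E16 (log2 fold change 0.0086, SE 0.20, adjusted p = 0.987). Neither passed limma's test, although the THRB libraries of the 2 ages did not overlap. THRB did pass in edgeR (adjusted p = 0.0393) and DESeq2 (adjusted p = 0.0092). The count of members called higher was 1 leaving out E18 replicate 1, 3 leaving out E18 replicate 2, 2 leaving out E16 replicate 1 and 3 leaving out E16 replicate 2.

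Lists of inner retinal neurons had medians above 0, and few of their members passed the test. The share called higher was 10.5% of bipolar and 23.1% of horizontal cell genes, against 10.7% of all genes tested. Of 19 bipolar cell genes, 2 were higher and none was lower by limma, with 1 at p under 0.05 before adjustment, 2 by edgeR and 2 by DESeq2 (median 0.10): TRPM1, the transduction channel of ON bipolar cells (3934 and 3534 at E18, against 2173 and 2492 at E16; log2 fold change 0.68, SE 0.19, adjusted p = 0.0388), and PRKCA, the kinase that marks rod bipolar cells in mammals (0.63). LRIT3, which in mouse places that channel at the dendrite tip, had 3068 and 3073 at E18, against 814 and 1113 at E16 and was not called (log2 fold change 1.69, SE 0.61, adjusted p = 0.0863). Of 13 horizontal cell genes, 3 were higher and none was lower by limma, with 1 at p under 0.05 before adjustment, 0 by edgeR and 0 by DESeq2 (median 0.37), namely CALB1, ESRRB and PROX1 (0.60). With a single library left out at a time, the bipolar count was 0 leaving out E18 replicate 1, 0 leaving out E18 replicate 2, 0 leaving out E16 replicate 1 and 0 leaving out E16 replicate 2, and the horizontal count was 0 leaving out E18 replicate 1, 0 leaving out E18 replicate 2, 0 leaving out E16 replicate 1 and 0 leaving out E16 replicate 2.

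Of 33 amacrine cell genes, 4 were higher and none was lower by limma, with 1 at p under 0.05 before adjustment, 0 by edgeR and 0 by DESeq2 (median 0.35). The share higher by limma, 12.1%, was near the 10.7% of all genes tested. SLC5A7, the choline transporter of starburst amacrine cells, had 1862 and 1501 normalized counts in E18 retina, against 533 and 443 in E16 retina (log2 fold change 1.78, SE 0.28, adjusted p = 0.00646). GCG, the glucagon precursor, made by a class of chick amacrine cells linked to eye growth, had 921 and 821 at E18, against 287 and 341 at E16 (log2 fold change 1.47, SE 0.28, adjusted p = 0.0118). SLC6A9, the glycine transporter, had a log2 fold change of 0.72 and PENK, the enkephalin precursor, one of 0.64. The GABA enzymes were higher in both E18 libraries without passing the test. GAD67, the row paired with GAD1, had 54704 and 49190.4 at E18, against 25583 and 22604 at E16 (log2 fold change 1.11, SE 0.65, adjusted p = 0.261), and GAD2 had 4712 and 4107 at E18, against 1794 and 1666 at E16 (log2 fold change 1.35, SE 0.55, adjusted p = 0.12). Among fate factors of these cells, PAX-6 was at 0.12, TFAP2A at -0.073 and TFAP2B at 0.37, none of them called. Over the whole list log2 fold changes ran from -1.68 to 1.78. The number called higher was 0 leaving out E18 replicate 1, 1 leaving out E18 replicate 2, 0 leaving out E16 replicate 1 and 0 leaving out E16 replicate 2.

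Of 20 ganglion cell genes, 2 were higher (10%) and 1 was lower (5%), against 10.7% and 7.87% of all genes tested (median 0.18). NEFM, a neurofilament subunit of thick axons, had 23769 and 20319.6 normalized counts in E18 retina, against 7958 and 8977 in E16 retina (log2 fold change 1.38, SE 0.37, adjusted p = 0.0342). The nicotinic receptor subunit CHRNA6 had a log2 fold change of 0.82. ATOH7 was the member that fell. GAP43, a protein of growing axon tips, had 1747 and 2075 at E18, against 3663 and 3102 at E16 and did not pass the test (log2 fold change -0.82, SE 0.65, adjusted p = 0.406). Members called higher numbered 0 leaving out E18 replicate 1, 0 leaving out E18 replicate 2, 0 leaving out E16 replicate 1 and 0 leaving out E16 replicate 2.

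Synaptic genes were higher at E18 where they changed. Of 52 genes of synaptic vesicles and active zones, 13 were higher and none was lower by limma, with 0 at p under 0.05 before adjustment, 0 by edgeR and 0 by DESeq2 (median 0.52), and 47 had a log2 fold change above 0. SYN1, which tethers vesicles, had 3729.9 and 3386 normalized counts in E18 retina, against 1735 and 1534 in E16 retina (log2 fold change 1.12, SE 0.25, adjusted p = 0.019). PCLO, a scaffold of active zones and photoreceptor ribbons, had 9262 and 5498 at E18, against 3283 and 3540.3 at E16 (log2 fold change 1.07, SE 0.24, adjusted p = 0.0202). SYT1, the calcium sensor of release, had 24609 and 22585 at E18, against 13459 and 11606 at E16 (log2 fold change 0.92, SE 0.18, adjusted p = 0.0134), and NSF, which recycles the fusion machinery, had a log2 fold change of 0.93. SNAP25, part of that machinery and abundant at both ages, had 50793 and 52370.4 at E18, against 42943 and 41371 at E16 and was not called (log2 fold change 0.29, SE 0.57, adjusted p = 0.756). Those called higher numbered 0 leaving out E18 replicate 1, 5 leaving out E18 replicate 2, 0 leaving out E16 replicate 1 and 2 leaving out E16 replicate 2.

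Of 73 receptors for transmitters, 6 were higher by limma (13 by edgeR and 15 by DESeq2), while none was lower by limma, with 3 at p under 0.05 before adjustment, 2 by edgeR and 2 by DESeq2, with a median of 0.33. The share called higher by limma, 8.22%, was below the 10.7% of all genes tested. Besides DRD4 and CHRNA6 these included GRIN2A, the NMDA receptor subunit that becomes prominent as synapses mature (2809 and 1727 at E18, against 1053 and 1034 at E16; log2 fold change 1.08, SE 0.22, adjusted p = 0.0155). GABRA6 had 12142 and 12056 at E18, against 2964 and 3012 at E16, with each E18 library above each E16 library, and was not called (log2 fold change 2.02, SE 0.65, adjusted p = 0.0615). The glycine receptor subunits GLRA1, GLRA2 and GLRA3 had log2 fold changes of 1.34, 1.03 and 1.17, none of them called. The count called higher was 1 leaving out E18 replicate 1, 2 leaving out E18 replicate 2, 1 leaving out E16 replicate 1 and 1 leaving out E16 replicate 2.

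Of 84 voltage-gated and leak channel genes, 18 were higher and none was lower by limma, with 1 at p under 0.05 before adjustment, 0 by edgeR and 1 by DESeq2 (median 0.46). KCNB2, a delayed rectifier subunit, had a log2 fold change of 1.37 and KCNA1 one of 2.24. CACNA1D, an L-type calcium channel, had 5020.4 and 3979 normalized counts in E18 retina, against 2571 and 2584 in E16 retina (log2 fold change 0.79, SE 0.16, adjusted p = 0.0152), and its accessory subunit gene CACNB2 a log2 fold change of 1.36. CLCN2, a chloride channel, had 199 and 176 at E18, against 0 and 6.54 at E16, with no read in the first E16 library. The count of members called higher was 0 leaving out E18 replicate 1, 6 leaving out E18 replicate 2, 2 leaving out E16 replicate 1 and 4 leaving out E16 replicate 2.

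Of 31 ion pumps and transporters of water, acid and chloride, 17 were higher, while none was lower by limma, with 1 at p under 0.05 before adjustment, 0 by edgeR and 0 by DESeq2, and the median was 0.79. SLC12A5, the exporter that sets low chloride in mature neurons, had 3890.3 and 3493 normalized counts in E18 retina, against 1314 and 1239 in E16 retina (log2 fold change 1.53, SE 0.22, adjusted p = 0.00515). Its counterpart SLC12A2, which imports chloride, was also higher, with 1114 and 915 at E18, against 535 and 501 at E16 (log2 fold change 0.96, SE 0.14, adjusted p = 0.00576). ATP2B2, a calcium pump of the plasma membrane, had 3359 and 2502 at E18, against 921 and 986 at E16 (log2 fold change 1.604, SE 0.21, adjusted p = 0.00429). SLC4A4, a bicarbonate transporter, had a log2 fold change of 1.34 and the carbonic anhydrase CA14 one of 1.35. SLC6A6, the taurine transporter, had 0.94. The number called higher was 1 leaving out E18 replicate 1, 10 leaving out E18 replicate 2, 3 leaving out E16 replicate 1 and 6 leaving out E16 replicate 2, and SLC4A4 was called in each of those fits.

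Of 29 neuropeptide genes and genes of peptide processing, 6 were higher and none was lower by limma, with 2 at p under 0.05 before adjustment, 0 by edgeR and 0 by DESeq2 (median 0.26). The processing enzymes PCSK1 (0.97), PCSK2 (0.63) and PAM (0.85) were among them, as were GCG and PENK. NMU, neuromedin U, made up the rest at 38.8 and 34.8 at E18, against 0 and 4.90 at E16. Members called higher numbered 0 leaving out E18 replicate 1, 2 leaving out E18 replicate 2, 0 leaving out E16 replicate 1 and 3 leaving out E16 replicate 2.

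Myelin genes were higher at E18 where they changed. The chicken retina, unlike that of most mammals, holds oligodendrocytes that wrap ganglion cell axons in the nerve fibre layer. Of 22 genes of these cells, 9 were higher and none was lower by limma, with 1 at p under 0.05 before adjustment, 0 by edgeR and 0 by DESeq2 (median 0.86), and 21 had a log2 fold change above 0. MBP, a main protein of compact myelin, had 10846 and 9602 normalized counts in E18 retina, against 1619 and 2641 in E16 retina (log2 fold change 2.30, SE 0.54, adjusted p = 0.0236). CNP, an enzyme of uncompacted myelin, had 4563 and 4329 at E18, against 1821 and 1807 at E16 (log2 fold change 1.29, SE 0.26, adjusted p = 0.0138). ENPP6, a choline phosphodiesterase of newly formed oligodendrocytes, had 3669 and 3565 at E18, against 1047 and 1069.5 at E16 (log2 fold change 1.77, SE 0.17, adjusted p = 0.00185). SOX10, the lineage factor, had a log2 fold change of 0.98. Those called higher numbered 1 leaving out E18 replicate 1, 4 leaving out E18 replicate 2, 1 leaving out E16 replicate 1 and 3 leaving out E16 replicate 2, and ENPP6 was called in each of those fits.

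**Figure D4:**
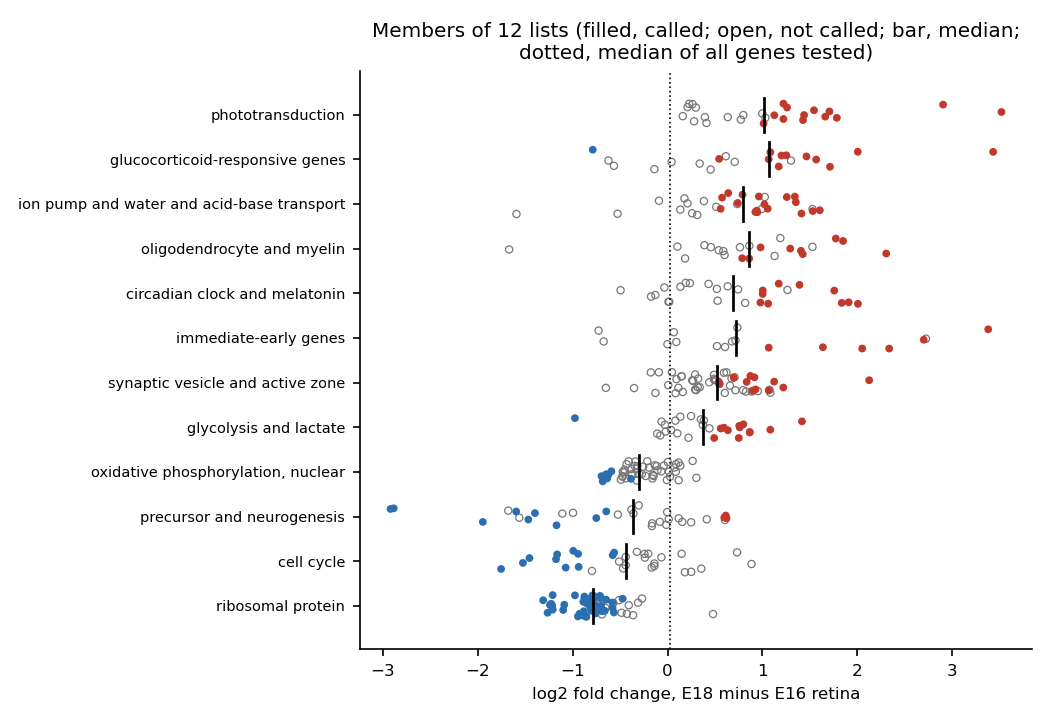
Each point is 1 tested member of a list, placed by its log2 fold change of E18 minus E16 retina, filled where called (red higher, blue lower) and open where not; the bar is the median of the list and the dotted line the median of all genes tested, 0.02. Phototransduction lies wholly to the right of 0, and all but 1 of the 64 ribosomal protein genes lie to the left.

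Activity-related and clock genes were higher at E18 where they changed. Of 17 immediate-early genes, 6 were higher and none was lower by limma, with 1 at p under 0.05 before adjustment, 0 by edgeR and 0 by DESeq2 (median 0.72). EGR1 had 3561 and 3677 normalized counts in E18 retina, against 471 and 659 in E16 retina (log2 fold change 2.70, SE 0.34, adjusted p = 0.00397). FOS had 913 and 1609.7 at E18, against 205 and 280.2 at E16 (log2 fold change 2.33, SE 0.30, adjusted p = 0.00438), and ATF3 had 481 and 529 at E18, against 44.1 and 51.5 at E16 (log2 fold change 3.38, SE 0.38, adjusted p = 0.0026). NR4A3 had a log2 fold change of 2.05. JUN had 1485 and 1751 at E18, against 1759 and 1479 at E16 and was not called. These genes react within minutes to light, synaptic activity and handling of tissue, and the part of light or handling in these values was not tested. The count called higher was 2 leaving out E18 replicate 1, 4 leaving out E18 replicate 2, 1 leaving out E16 replicate 1 and 3 leaving out E16 replicate 2, and ATF3 was called in each of those fits.

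Of 26 genes of the circadian clock and of melatonin synthesis, 10 were higher and none was lower by limma, with 1 at p under 0.05 before adjustment, 1 by edgeR and 1 by DESeq2 (median 0.69). PER2, a repressor of the clock, had 3387 and 3065 normalized counts in E18 retina, against 1451 and 1410.2 in E16 retina (log2 fold change 1.17, SE 0.11, adjusted p = 0.00174). Its mean at E8, 2837, was near that at E18, so that E16 was the low age. HLF, an output factor, had 3086 and 2917 at E18, against 786 and 812 at E16 (log2 fold change 1.91, SE 0.14, adjusted p = 0.00115). REV-ERBB, the row paired with NR1D2, had 4840.0 and 4055 at E18, against 1280.3 and 1342 at E16 (log2 fold change 1.76, SE 0.18, adjusted p = 0.00229), and CLOCK had a log2 fold change of 1.39. OPN4-1, a melanopsin, had 3355 and 2935 at E18, against 654 and 933 at E16 (log2 fold change 2.01, SE 0.30, adjusted p = 0.00579). Other parts of the loop were near level: CRY1 had 5419 and 5507 at E18, against 5527 and 5323 at E16 and ARNTL had 3862 and 4175 at E18, against 4503 and 4275 at E16. AANAT, the rhythmic enzyme of melatonin synthesis, had 594 and 840.4 at E18, against 689.5 and 599.7 at E16. The part of the hour of day in these values was not tested. The count of members called higher was 3 leaving out E18 replicate 1, 9 leaving out E18 replicate 2, 3 leaving out E16 replicate 1 and 6 leaving out E16 replicate 2, and PER2, HLF and REV-ERBB were called in each of those fits.

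Of 28 glycolysis and lactate genes, 12 were higher (42.9%) and 1 was lower (3.57%), with a median of 0.38. Over all genes tested the shares were 10.7% and 7.87%. SLC16A1, the monocarboxylate transporter that carries lactate, had 37729 and 36797 normalized counts in E18 retina, against 13937 and 13996 in E16 retina (log2 fold change 1.42, SE 0.13, adjusted p = 0.00143), a call that held with any 1 library left out. PFKP, a phosphofructokinase, had 28060.4 and 27261 at E18, against 15644 and 14718 at E16 (log2 fold change 0.87, SE 0.15, adjusted p = 0.00822). ENO2, neuronal enolase, had a log2 fold change of 0.87, PGK1 one of 0.75 and the glucose transporter SLC2A1 one of 0.80. GAPDH, the most abundant gene in each of the 4 libraries, went the other way, with 273354 and 288253 at E18, against 526159 and 578466 at E16 (log2 fold change -0.97, SE 0.21, adjusted p = 0.0186). It held 1.08% and 1.14% of the reads on genes at E18, against 2.12% and 2.37% at E16. Summed over the list with GAPDH included, normalized counts were 1100140 and 1116980 at E18, against 1126410 and 1205950 at E16. The sum was thus lower at E18 although more members were called higher. The fall in GAPDH alone was larger than the fall in the sum. LDHA and PKM were not called (0.37 and 0.35). The number called higher was 1 leaving out E18 replicate 1, 8 leaving out E18 replicate 2, 2 leaving out E16 replicate 1 and 5 leaving out E16 replicate 2.

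Of 21 glycogen genes, 5 were higher (23.8%) and 1 was lower (4.76%), against 10.7% and 7.87% of all genes tested (median 0.25). PGM1, which links glucose to glycogen, had a log2 fold change of 0.94 and the phosphorylase PYGB one of 0.49. PYGL, another phosphorylase, fell (-0.54). GYS2, a glycogen synthase, had 1554 and 1405 at E18, against 436 and 569 at E16 and was not called by limma (log2 fold change 1.57, SE 0.53, adjusted p = 0.0724). It passed in edgeR (adjusted p = 0.0029) and DESeq2 (adjusted p = 3.8e-09). Members called higher numbered 0 leaving out E18 replicate 1, 2 leaving out E18 replicate 2, 0 leaving out E16 replicate 1 and 2 leaving out E16 replicate 2.

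Subunits of the respiratory chain were lower where they changed. Of 51 nuclear genes of oxidative phosphorylation, 8 were lower and none was higher by limma, with 0 at p under 0.05 before adjustment, 0 by edgeR and 0 by DESeq2 (median -0.30). COX6C had 3736 and 3986 normalized counts in E18 retina, against 6079 and 6420.4 in E16 retina (log2 fold change -0.69, SE 0.10, adjusted p = 0.00559). NDUFA4 had 7749 and 8009 at E18, against 11649.6 and 12856 at E16 (log2 fold change -0.64, SE 0.11, adjusted p = 0.00764), and UQCRH had a log2 fold change of -0.65. The changes were small, all called members lying between -0.69 and -0.38. SDHA and ATP5A1 were not called (0.089 and 0.26). Those called lower numbered 0 leaving out E18 replicate 1, 6 leaving out E18 replicate 2, 0 leaving out E16 replicate 1 and 0 leaving out E16 replicate 2.

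Of the 12 genes tested that are encoded in mitochondrial DNA, 1 was higher (8.33%) and 2 were lower (16.7%). Over all genes tested the shares were 10.7% and 7.87%. A log2 fold change below 0 was found for 10 of the 12 (median -0.43). MT-CO3 had 31347 and 34248 at E18, against 49372 and 46671 at E16 (log2 fold change -0.55, SE 0.15, adjusted p = 0.0372) and MT-ND3 had 2037 and 2353 at E18, against 4444 and 4374 at E16 (log2 fold change -1.01, SE 0.11, adjusted p = 0.00281). MT-ATP8 was the member that rose, with 5563 and 6062 at E18, against 1484 and 1312 at E16 (log2 fold change 2.06, SE 0.15, adjusted p = 0.00115). Its means were 7225 in E8 retina and 6964 in E18 cornea, so that E16 retina was the low group. MT-ATP8 overlaps MT-ATP6, which had a log2 fold change of -0.32. Reads of overlapping genes may be split or dropped in counting, so the level of MT-ATP8 is uncertain. Together the mitochondrial genes held 0.874% and 0.947% of reads on genes at E18, against 1.26% and 1.23% at E16.

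Ribosomal protein genes were lower at E18 where they changed. Of 64 genes tested, 48 (75.0%) were lower, against 7.87% of all genes tested, none was higher by limma, with 0 at p under 0.05 before adjustment, 0 by edgeR and 0 by DESeq2, and the median log2 fold change was -0.78. All but 1 had a log2 fold change below 0. RPLP0, a protein of the ribosomal stalk, had 11594 and 14325 normalized counts in E18 retina, against 32701 and 31218 in E16 retina (log2 fold change -1.31, SE 0.19, adjusted p = 0.00518), and RPS29 had 4901 and 6187 at E18, against 12500 and 13968 at E16 (log2 fold change -1.26, SE 0.17, adjusted p = 0.00475). RPS15 fell with any 1 library left out (-1.22). The genes together held 2.59% and 2.88% of reads on genes at E18, against 4.84% and 5.09% at E16. Both E18 libraries were below both E16 libraries for 63 of the 64, against 4545 of all 13194 genes tested. In the 1 other gene both E18 libraries were above. Ribosomal protein genes have copies elsewhere in many genomes, and how shared reads were counted is not given in the sources used here. The count called lower was 2 leaving out E18 replicate 1, 24 leaving out E18 replicate 2, 8 leaving out E16 replicate 1 and 9 leaving out E16 replicate 2. The median stayed between -0.85 and -0.69 in those fits.

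Genes of dividing cells were lower at E18 where they changed. Of 30 cell cycle genes, 11 were lower and none was higher by limma, with 1 at p under 0.05 before adjustment, 0 by edgeR and 0 by DESeq2 (median -0.44). CCNB2, a mitotic cyclin, had 307 and 313 normalized counts in E18 retina, against 875 and 828 in E16 retina (log2 fold change -1.45, SE 0.13, adjusted p = 0.00143). MCM2, a subunit of the replicative helicase, had 248 and 245 at E18, against 517 and 599.7 at E16 (log2 fold change -1.17, SE 0.13, adjusted p = 0.00251), and in E8 retina it averaged 13030.5. PCNA, the replication clamp, had a log2 fold change of -0.56 and the nucleotide enzyme TYMS one of -0.58. MKI67, the standard marker of proliferation, had 253 and 214 at E18, against 295 and 243 at E16 and was not called (log2 fold change -0.20, SE 0.18, adjusted p = 0.46), and TOP2A had 309 and 254 at E18, against 331 and 288 at E16. The count of members called lower was 5 leaving out E18 replicate 1, 5 leaving out E18 replicate 2, 3 leaving out E16 replicate 1 and 5 leaving out E16 replicate 2, and CCNB2, MCM2 and PLK1 (-1.52) were called in each of those fits.

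Of 31 genes of precursors and neurogenesis, 9 were lower (29.0%) and 3 were higher (9.68%), with a median of -0.36. Over all genes tested the shares were 7.87% and 10.7%. Besides LFNG, ATOH7 and RX1, the members that fell included targets of Notch and of BMP signalling. HES5, a Notch target, had 398 and 569 normalized counts in E18 retina, against 1444 and 1432 in E16 retina (log2 fold change -1.59, SE 0.27, adjusted p = 0.00782), and HEY1, another, had 1611 and 1829 at E18, against 3159 and 2639.9 at E16 (log2 fold change -0.75, SE 0.14, adjusted p = 0.0107). ID3, an inhibitor of neurogenic factors, had 105 and 133 at E18, against 349 and 308 at E16 (log2 fold change -1.47, SE 0.18, adjusted p = 0.00323), and its relatives ID1 and ID2 had log2 fold changes of -2.92 and -0.64. HES6, which opposes Notch output in mouse, completed the list (-1.40). NES, JAG1 and SFRP1 rose, by log2 fold changes of 0.62, 0.61 and 0.60. NES, an intermediate filament, and SFRP1, a secreted Wnt antagonist, are known in glia as well as in precursors. SOX2, which both precursors and Müller glia express, was near level at 888 and 1017 at E18, against 1003 and 1007 at E16. The number called lower was 2 leaving out E18 replicate 1, 8 leaving out E18 replicate 2, 2 leaving out E16 replicate 1 and 3 leaving out E16 replicate 2.

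Of 55 genes of the neuronal cytoskeleton and of axon guidance, 6 were higher (10.9%) and 7 lower (12.7%), against 10.7% and 7.87% of all genes tested (median 0.18). STMN1, stathmin, which frees tubulin from microtubules, had 44152 and 46631 normalized counts in E18 retina, against 81062 and 81413 in E16 retina (log2 fold change -0.84, SE 0.21, adjusted p = 0.0304), and TUBB2B, a tubulin of young neurons, had 11038 and 12065 at E18, against 24709 and 24920.1 at E16 (log2 fold change -1.10, SE 0.25, adjusted p = 0.0199). DPYSL3, a collapsin response mediator, had a log2 fold change of -1.15, TMSB4X one of -0.76 and MLLT11 one of -3.28. Members that rose included the adhesion and guidance genes SEMA3E (1.45), ALCAM (1.06), NFASC (0.86) and EPHA7 (0.76). DCX, doublecortin, a microtubule protein of migrating neurons, rose as well, with 1986 and 1617 at E18, against 811 and 744 at E16 (log2 fold change 1.20, SE 0.18, adjusted p = 0.00569). CNTN2, an axonal adhesion protein, fell (-0.9996). Tubulin and thymosin genes have close relatives, and reads shared among them leave their single levels uncertain. Members called higher numbered 0 leaving out E18 replicate 1, 2 leaving out E18 replicate 2, 0 leaving out E16 replicate 1 and 0 leaving out E16 replicate 2, and the count called lower was 0 leaving out E18 replicate 1, 1 leaving out E18 replicate 2, 0 leaving out E16 replicate 1 and 3 leaving out E16 replicate 2.

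**Figure D5:**
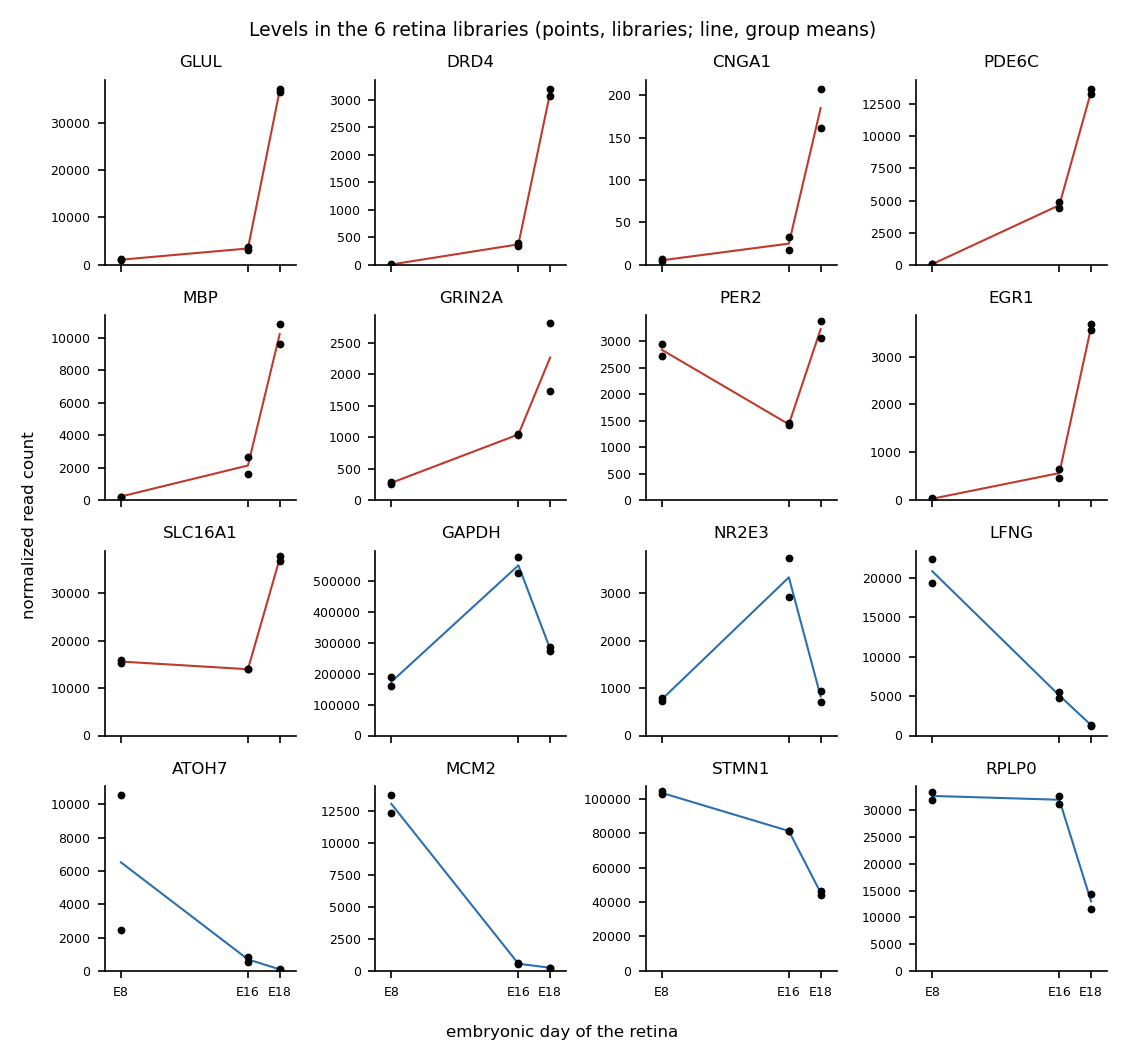
Each panel gives the normalized read count of 1 gene in the 6 retina libraries by embryonic day, with points for libraries and a line through the group means, red for genes with a log2 fold change above 0 between E18 and E16 and blue for those below. GLUL is low at E8 and E16, PER2, GAPDH and NR2E3 turn at E16, and RPLP0 is level at means of 32676 and 31959 at E8 and E16 before 12959.9 at E18.

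Of 24 genes of cholesterol synthesis and uptake, 7 were higher (29.2%) and 2 lower (8.33%), with a median of 0.26. Over all genes tested the shares were 10.7% and 7.87%. HMGCS1, which makes the precursor of the rate-limiting step, had 5487 and 5464 at E18, against 3335 and 4052 at E16 (log2 fold change 0.57, SE 0.12, adjusted p = 0.0177), SQLE had a log2 fold change of 0.61 and the regulator INSIG1 one of 0.66. PMVK and ACAT2 fell (-1.02 and -0.67). Of 23 genes of fatty acid synthesis and elongation, 3 were higher and 3 lower (13.0% each, against 10.7% and 7.87% of all genes tested), with a median of 0.28. FASN, fatty acid synthase, had 11606 and 8579 at E18, against 5851 and 5997 at E16 (log2 fold change 0.75, SE 0.19, adjusted p = 0.0316). The fatty acid carriers FABP5 (6899 and 7586 at E18, against 12557 and 12405 at E16; log2 fold change -0.79, SE 0.21, adjusted p = 0.0333) and FABP3 (-0.67) fell, as did the desaturase FADS1 (-0.73). ELOVL4, which makes the very long chains of outer segment lipids, had 4903 and 4697 at E18, against 3334 and 3296 at E16 and was not called. The count of cholesterol genes called higher was 0 leaving out E18 replicate 1, 2 leaving out E18 replicate 2, 0 leaving out E16 replicate 1 and 0 leaving out E16 replicate 2, and the count of fatty acid genes called higher was 0 leaving out E18 replicate 1, 3 leaving out E18 replicate 2, 0 leaving out E16 replicate 1 and 0 leaving out E16 replicate 2.

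Of 39 genes of oxidative and heat stress, 1 was higher (2.56%) and 6 were lower (15.4%), with a median of -0.093. Over all genes tested the shares were 10.7% and 7.87%. HSP70, the row that RefSeq pairs with HSPA2, had 9130.0 and 8503 normalized counts in E18 retina, against 2165 and 2048 in E16 retina (log2 fold change 2.06, SE 0.26, adjusted p = 0.00383), with a mean of 13699 in E18 cornea. Its relatives HSPA8 and HSPA5 were not called (0.15 and -0.26), and HSP90AB1 fell (-0.56). Enzymes of glutathione made up much of the rest, with GSS at -1.001, GSTO1 at -0.71 and GSTA3 at -1.26. Those called lower numbered 0 leaving out E18 replicate 1, 2 leaving out E18 replicate 2, 1 leaving out E16 replicate 1 and 0 leaving out E16 replicate 2.

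Of 34 matrix and perineuronal net genes, 3 were higher (8.82%) and 1 was lower (2.94%), against 10.7% and 7.87% of all genes tested (median 0.042). SPON1, a secreted adhesion protein, had 6298 and 5067 at E18, against 1988 and 2369 at E16 (log2 fold change 1.38, SE 0.14, adjusted p = 0.00229), and LAMA1, a laminin chain, had 2503 and 2076 at E18, against 775 and 1201 at E16 (log2 fold change 1.24, SE 0.21, adjusted p = 0.00793). NID1, a linker of basement membranes, fell (383 and 349.8 at E18, against 882 and 767 at E16; log2 fold change -1.17, SE 0.15, adjusted p = 0.00416). The call of SPON1 held with any 1 library left out. None of 14 crystallin genes was called by limma, with 1 higher and 1 lower at p under 0.05 before adjustment, 0 and 0 by edgeR and 1 and 0 by DESeq2. Of 95 rows named for microRNAs that were tested, 7 were higher (7.37%) and 5 lower (5.26%), both under the shares of all genes tested. In libraries of poly(A) RNA such a row holds reads of the transcript around the hairpin and not the mature microRNA, and its reads cannot be told apart from those of a host gene on the same strand.

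Markers of other tissues that a dissection could carry over were checked in the same 4 libraries, and their part in the results above was not tested. CDH5, the cadherin of blood vessels, had 12.5 and 0.757 at E18, against 42.0 and 42.5 at E16, and the globin gene HBE1 had 1.25 and 1.51 at E18, against 4.20 and 13.9 at E16. Of 18 pigment epithelium genes tested, 5 were higher and none was lower by limma, with 2 at p under 0.05 before adjustment, 1 by edgeR and 1 by DESeq2. Those higher were 27.8%, against 10.7% of all genes tested. Log2 fold changes were above 0 for 10 of the 18 and below 0 for 8 (median 0.093). The list summed to 8993 and 8198 at E18, against 5967 and 5758 at E16. Much of this gap lay in MLPH and in TRPM1, which is also in the bipolar cell list. MLPH, which links pigment granules to motors, had 1946 and 1689 at E18, against 308 and 462 at E16 (log2 fold change 2.26, SE 0.31, adjusted p = 0.00475). TRPM1 had 3934 and 3534 at E18, against 2173 and 2492 at E16. The other called members were RPE65, given above, MITF and SERPINF1. MITF, a regulator of pigment cell genes, had 511 and 504 at E18, against 270.1 and 283 at E16 (log2 fold change 0.87, SE 0.14, adjusted p = 0.00705). SERPINF1, a secreted factor of the pigment epithelium, had 273 and 212 at E18, against 109 and 104 at E16 (log2 fold change 1.17, SE 0.19, adjusted p = 0.00766). The melanosome markers TYRP1 and MLANA were low and not called: TYRP1 had 23.8 and 3.03 at E18, against 8.41 and 11.4 at E16, and MLANA had 6.26 and 0 at E18, against 9.46 and 9.80 at E16. Of 23 microglia and leukocyte genes tested, 3 were higher and 3 lower (13.0% each, against 10.7% and 7.87% of all genes tested). The list summed to 9506 and 9659.7 at E18, against 9435 and 10619 at E16. Its members went both ways, 9 with a log2 fold change above 0 and 14 with one below 0 (median -0.21). C1QA, a complement gene of microglia, was among those lower at E18, with 7.52 and 18.2 at E18, against 28.4 and 58.8 at E16.

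Of 19 endothelium and pericyte genes tested, 2 were higher and 2 lower (10.5% each, against 10.7% and 7.87% of all genes tested). The risers were ANGIOPOIETIN-2, a vessel-remodelling ligand (4016 and 3941 at E18, against 1231 and 1226 at E16; log2 fold change 1.69, SE 0.20, adjusted p = 0.00325), and KDR, a receptor for vascular endothelial growth factor (7396 and 6614 at E18, against 4423 and 3741 at E16; log2 fold change 0.78, SE 0.17, adjusted p = 0.018). The chicken retina has no blood vessels of its own, and CDH5 was among the genes that fell (log2 fold change -3.15, SE 0.77, adjusted p = 0.0268). Of 22 corneal genes tested, 3 were higher and none was lower by limma, with 3 at p under 0.05 before adjustment, 0 by edgeR and 0 by DESeq2, and of 14 scleral and cartilage genes 3 were higher and none was lower by limma, with 1 at p under 0.05 before adjustment, 0 by edgeR and 0 by DESeq2. Those higher were 13.6% of the corneal and 21.4% of the scleral and cartilage genes, against 10.7% of all genes tested. SOX9, among the scleral and cartilage genes that were higher, is also in the Müller glia list. The corneal list summed to 11189 and 10034 at E18, against 7532 and 7625 at E16. Most of its tested members went the other way, 17 with a log2 fold change below 0 and 5 with one above 0 (median -0.44). The corneal genes that rose were collagens and fibromodulin, led in level by COL5A1 (8124 and 7134 at E18, against 4297 and 4724 at E16), while KRT12 and LUM stayed low. Of 12 lens genes 1 was higher (8.33%) and 0 lower. The lens gene that was higher was PROX1, which is also in the horizontal cell list. Of 23 striated muscle genes 3 were higher (13.0%) and 2 lower (8.70%), near the shares of all genes tested, MLIP being the one that fell most. None of 7 red blood cell genes tested was called by limma, with 0 higher and 0 lower at p under 0.05 before adjustment, 0 and 0 by edgeR and 0 and 0 by DESeq2.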

How the data were processed

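The authors made stranded TruSeq libraries from poly(A) RNA of whole retina, aligned paired reads to the galGal4 genome with STAR, counted reads per gene with featureCounts (Subread) and divided them by DESeq2 size factors. The deposited signal values are therefore reads divided by 1 factor per library, and dividing by the value of 1 read gave back whole reads for 100% of values (tolerance 0.01). The annotation release, the strand setting and the treatment of reads shared by genes are not given in the sources used here. Genes kept by edgeR's filterByExpr (minimum count 10) numbered 13194 of 16700 in the table: 13133 of the 14452 members passed and 1319 did not. The main test was limma 3.58.1 in R 4.3.3 on log2(value + 1) with a trended prior over all 8 libraries. Benjamini-Hochberg adjustment was over all genes tested. The added 1 tends to pull fold changes of low genes toward 0, but limma's were not always the smaller. For GBE the log2 fold change was 6.47 by limma, 6.19 by edgeR and 6.25 by DESeq2. For MLLT11 it was -3.28, -3.70 and -3.67. In edgeR 4.0.16 and DESeq2 1.42.0 the recovered reads were tested as alternatives; the others were pseudocounts of 0.5 and 5, no filter, TMM factors, a fit of the 4 libraries alone, a replicate block and leaving out each library. In a simulation of this comparison over 13194 genes, limma recovered 59 of 100 genes changed 2-fold and 100 of 100 changed 4-fold, with 6 false calls. It gave every gene and group the same dispersion and changed only genes above a minimum mean. In the data the median replicate standard deviation was 0.0861 at E18 and 0.0949 at E16, against 0.179 in E8 retina and 0.176 in E18 cornea. The simulated rates therefore need not hold for the data. Members of 42 lists were counted as called or not, with no set test, and listed genes that had no tested row were not counted. Row names were matched to list symbols through RefSeq synonyms of assembly GRCg7b for 33 members; no coordinates or lengths were used from it, and no sequences or promoters were analysed here. Gene lists, members and the naming rule were chosen with earlier results of these data known. By that rule the text draws on the 12 largest rises and 12 largest falls among called genes with a symbol and at least 10 RPM (reads per 1000000 on genes), the 8 largest of each with at least 100, and from each list its first 2 tested members and up to 4 called members in each direction at 5 RPM or more; genes named besides these were chosen after their values were seen. Some genes that the rule takes are not reported here. At 3 reads a gene was taken as at the limit of detection. That limit covers counting error only.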

Additional observations from a re-analysis of the deposited data

How the results depend on the processing

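The number of genes called was 2450. It was 4657 in the fit of only the 4 libraries compared (2733 higher and 1924 lower), 109 to 884 with 1 library left out (64 to 529 higher, 45 to 355 lower), and within 1.5 times under the other settings. That 4-library fit also called 16 clock, 15 myelin (DESeq2 called 14), 11 outer segment, 22 phototransduction, 29 synaptic and 39 channel genes higher and 19 nuclear oxidative phosphorylation genes lower; the cause of these larger counts was not tested. With 1 library left out, lists shrank in the number called higher: clock to 3 to 9, glucocorticoid-responsive 4 to 6, glycolysis 1 to 8, immediate-early 1 to 4, ion pumps 1 to 10, myelin 1 to 4, outer segment 0 to 1, phototransduction 1 to 4, synaptic 0 to 5 and channels 0 to 6. In the number called lower, the cell cycle list shrank to 3 to 5, precursors 2 to 8, nuclear oxidative phosphorylation 0 to 6 and ribosomal proteins 2 to 24. Each of those fits holds 1 library of 1 age, and the cause of the smaller counts was not tested. No called gene that the text names reversed under any setting. Genes that were not called and lie near 0 did: with 1 library left out, AANAT spanned -0.11 to 0.39, CRY1 -0.017 to 0.037, JUN -0.13 to 0.12, RBP3 -0.10 to 0.26, SGK1 -0.036 to 0.12, SOX2 -0.18 to 0.017, TFAP2A -0.16 to 0.015, THRA -0.18 to 0.20, TOP2A -0.28 to 0.0041 and TYRP1 -1.43 to 1.20 on the log2 scale. JUN was at 0.000149 by DESeq2, and TYRP1 at 0.40 by DESeq2, 0.24 by edgeR and 0.035 with a pseudocount of 5. List medians near 0 crossed it as well with 1 library left out: photoreceptor transcription factors -0.080 to 0.20, growing neuron genes -0.0064 to 0.27, matrix -0.023 to 0.12, microRNA rows -0.082 to 0, microglia -0.37 to 0.0073, pigment epithelium -0.042 to 0.45 and striated muscle -0.14 to 0.

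With a replicate block 2260 genes were called. Deviations of same-numbered libraries correlated between -0.0539 and 0.0530 across groups, and -0.0450 between E18 and E16 retina. Such values over genes cannot decide whether same-numbered libraries share a batch, or whether those of E18 retina and E18 cornea share an embryo. Libraries of different ages cannot share an embryo, as embryos were killed at harvest.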

Other observations

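Some genes outside the groups described above were called in every fit that left out 1 library; they were chosen after their values were seen. HIF1A, the oxygen-regulated subunit of the hypoxia factor, had 23759 and 20859 normalized counts in E18 retina, against 9413 and 9862 in E16 retina (log2 fold change 1.21, SE 0.12, adjusted p = 0.00193), and EGLN3, a prolyl hydroxylase that the factor induces, had 529 and 585 at E18, against 135 and 148 at E16 (log2 fold change 1.97, SE 0.21, adjusted p = 0.00241). Both E18 libraries were above both E16 libraries in each gene. ITPR1, the calcium release channel of the endoplasmic reticulum, had 3729.9 and 2963 at E18, against 955 and 1329 at E16 (log2 fold change 1.56, SE 0.18, adjusted p = 0.00285). MBNL2, a regulator of late splicing switches, had 1767 and 1757 at E18, against 685 and 714 at E16 (log2 fold change 1.33, SE 0.14, adjusted p = 0.00251), and CREBBP, a histone acetyltransferase, had 1972 and 1526 at E18, against 743 and 761 at E16 (log2 fold change 1.20, SE 0.14, adjusted p = 0.00323). ANXA2, an annexin, had 3463 and 3949 at E18, against 1160.4 and 1327 at E16 (log2 fold change 1.57, SE 0.12, adjusted p = 0.00115). Among genes that fell, FHL2, a cofactor with LIM domains, had 491 and 569 at E18, against 1313 and 1456 at E16 (log2 fold change -1.39, SE 0.15, adjusted p = 0.00256), SOSTDC1, a secreted antagonist of BMP and Wnt signals, had 722 and 815 at E18, against 1821 and 1918 at E16 (log2 fold change -1.28, SE 0.13, adjusted p = 0.0023), and BID, a trigger of cell death, had 479 and 587 at E18, against 1911 and 1597 at E16 (log2 fold change -1.72, SE 0.15, adjusted p = 0.00136).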
